A study of Homo sapiens with 12 samples.

Results

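The genes described here are 42 mitotic kinases, kinesins, kinetochore proteins and their partners, chosen by name among the 20212 protein-coding genes for which ribosome footprints (RF) and total RNA were counted. PANC-1 is an established human cell line from a carcinoma of the pancreatic duct, which the study describes as lacking the translational repressor 4EBP1, so that both treatments share this background. The cells were given DMSO, the solvent control, or 50 nM rapamycin, an inhibitor of the mTORC1 kinase complex, and were collected 60 min after rapamycin was added. There were 3 cultures of each treatment, from each of which 1 RF and 1 total RNA library were made, 12 libraries in all. Ribosome footprinting sequences the mRNA fragments that ribosomes protect from nuclease, and translational efficiency (TE) is the footprints of a gene divided by its total RNA. All the cells come from a single line, and the cultures were not reported to be synchronised.

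Cells enter mitosis when CDK1 bound to cyclin B becomes active, and the Aurora and Polo-like kinases then act on centrosomes, spindle and chromosomes. Kinesins move along microtubules to build the spindle and divide the cell, the kinetochore attaches chromosomes to microtubules, and the spindle checkpoint holds the anaphase-promoting complex inactive until all are attached. Most of these genes are transcribed mainly in the G2 phase and mitosis, in part through a cell cycle homology region (CHR) and CCAAT boxes near their start sites. Rapamycin is best known in translation for its effect on mRNAs that begin with a terminal oligopyrimidine (TOP) motif, a C followed by a run of pyrimidines, which code mostly for ribosomal proteins and translation factors.

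The first bases of the transcripts are shown because the TOP motif is read at that end. In the most abundant coding isoform of each gene, as annotated on GRCh37, 0 of the 42 genes began with a C followed by at least 4 pyrimidines, against 537 of 12937 genes tested (4.15%). When a run of at least 5 pyrimidines could begin at any of the first 4 bases, 3 of the 42 held one (SMC4, CENPA and KIF11), against 14.1% of the genes tested. These counts depend on the exact first base of the annotation, and where the transcripts begin in PANC-1 was not tested. The first 20 bases of the 4 genes whose TE did not overlap between treatments (described below) are followed by those of the genes with the most footprints in their role, TPX2 and CCNB1, with capitals marking the pyrimidines that lead the transcript.
MAD2L1: gtcgttacttttgaaacgct
AURKA: CTTggaagacttgggtcctt
ZWILCH: actgctcttattttaattat
CCNB2: gaagatccccagcgctgcgg
TPX2: gaatgagtcccgcggcgggt
CCNB1: aggctggctcttctcggcgt

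The promoters shared a feature that played no part in choosing the genes. RefSeq promoter sequences of GRCh38.p14, from 250 bases before to 50 after the start of the gene, were matched for 36 of the 42 genes. The letters TTTGAA or TTTAAA, the usual CHR, stood on either strand of 31 of the 36 (86.1%), against 15.6% of the promoters of all genes tested and 24.0% of all 35116 promoters. CCAAT on either strand was found in 26 of the 36 (72.2%), against 36.6% of the promoters of the genes tested, and both a CHR and at least 2 CCAAT were found in 12 (33.3%), against 2.29%. These matches are descriptions of the letters in the window and not evidence of binding. Of the 10 genes with a promoter whose total RNA did not overlap between treatments, 9 had a match, a share near the 86.1% of all 36. The windows below are those nearest the start site in these 9 genes. They show 30 bases on the strand of the gene, with the CHR letters or their reverse complement in capitals.
CCNB1, chr5:69167108-69167137, plus strand: agcagtgcggggTTTAAAtctgaggctagg
CCNB2, chr15:59105105-59105134, plus strand: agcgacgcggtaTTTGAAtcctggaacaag
KIF20A, chr5:138179059-138179088, plus strand: cgcagcgcgtaaTTTAAAatattgtatctg
KIF23, chr15:69414282-69414311, plus strand: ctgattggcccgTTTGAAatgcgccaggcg
KIF2C, chr1:44739822-44739851, plus strand: ttgcgcgcgggaTTTAAActgcggcggttt
PLK1, chr16:23678848-23678877, plus strand: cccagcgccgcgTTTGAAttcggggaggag
PRC1, chr15:90994538-90994567, minus strand: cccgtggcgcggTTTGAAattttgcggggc
SPAG5, chr17:28599005-28599034, minus strand: gcgcagagcaggTTCAAAcacagacggcgg
TOP2A, chr17:40418030-40418059, minus strand: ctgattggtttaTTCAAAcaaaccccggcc

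The RF libraries held between 278835 and 1574723 counts, and those of total RNA held 78081241 to 94293744. The 42 genes together took 0.494% to 0.559% of the RF counts and 0.930% to 1.001% of the total RNA counts. All 42 passed the minimum of 10 counts in each library type, as did 13329 genes in all. Summed over the 6 RF libraries, the counts of a gene ran from 85 for CENPA to 2125 for TPX2, with a median of 417, against a median of 87 for all genes tested. The pancreatic duct label was met by KRT8, KRT18 and KRT19, which lay between 1326 and 1765 FPKM (fragments per kilobase of transcript, scaled to the library) in every total RNA library, while KRT7 lay between 9.83 and 12.02. Of 8 markers of other cell types, CD68 was between 69.0 and 88.3 FPKM and the other 7, among them the defining markers PTPRC, ALB, PRSS1 and INS, did not exceed 0.215. The total RNA libraries of DMSO replicates 1 and 2 stood apart from the rest, with counts on 16840 and 16858 genes against 19751 to 19847 in the other 4.

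After 60 min of rapamycin, the TE of the mitotic genes as a group lay where that of all genes lay. Their median log2 TE change was −0.07, against −0.06 for all genes tested, and 22 of the 42 were below 0, against 53.7% of all genes. The lowest values belonged to the spindle checkpoint protein MAD2L1 and the kinase AURKA, and the highest to AURKB and the cyclin CCNA2. With edgeR's quasi-likelihood F test and Benjamini-Hochberg adjustment over the 13329 genes, the TE of 0 of the 42 and of 0.0% of all genes passed the threshold of 0.05, and the smallest adjusted p of the 42 was 0.232. At an unadjusted p under 0.05, 2 of the 42 were lower in rapamycin (6.43% of all genes) and 0 were higher (6.16%). DESeq2's Wald test of the same interaction called 2 of the 42, MAD2L1 and AURKA, a smaller share than the 1299 of all 13329 genes. In contrast, limma voom called 0 genes. Leaving out 1 culture at a time moved the median TE change of the 42 between −0.21, without rapamycin replicate 1, and −0.01, without DMSO replicate 3, where the medians of all genes were −0.11 and 0.01.

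The precision differed widely within the group. The 95% interval of the TE change lay within 1 log2 unit of 0 for 21 of the 42 genes, and included 0 for 40. It was narrowest for TOP2A, from −0.48 to 0.24, and widest for AURKB, from −1.98 to 3.03. The biological coefficient of variation was 54.9% in the footprints, against 5.31% in total RNA. The TE fit gave each gene a single dispersion for both library types, with a coefficient of 24.4%, and had no term for the culture. An alternative edgeR fit with a term for each culture called neither MAD2L1 nor AURKA after adjustment. The median SE of the main TE fit for the 42 genes was 0.33, against 0.39 for RF alone, so the TE intervals may be too narrow. On counts simulated with the spread of each library type, the TE test recovered 0.5% of genes changed 2-fold and 17.5% of those changed 4-fold. Most of the genes it called after adjustment had not been changed. The changed genes were drawn from all genes tested, which had a median of 87 footprint counts, against 417 for the 42. An adjusted TE call of this test is therefore weak evidence for a single gene. The unadjusted p, a looser criterion, was not examined in the simulation. The lack of a call does not show that a gene's TE was unaltered.

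**Figure D1:**
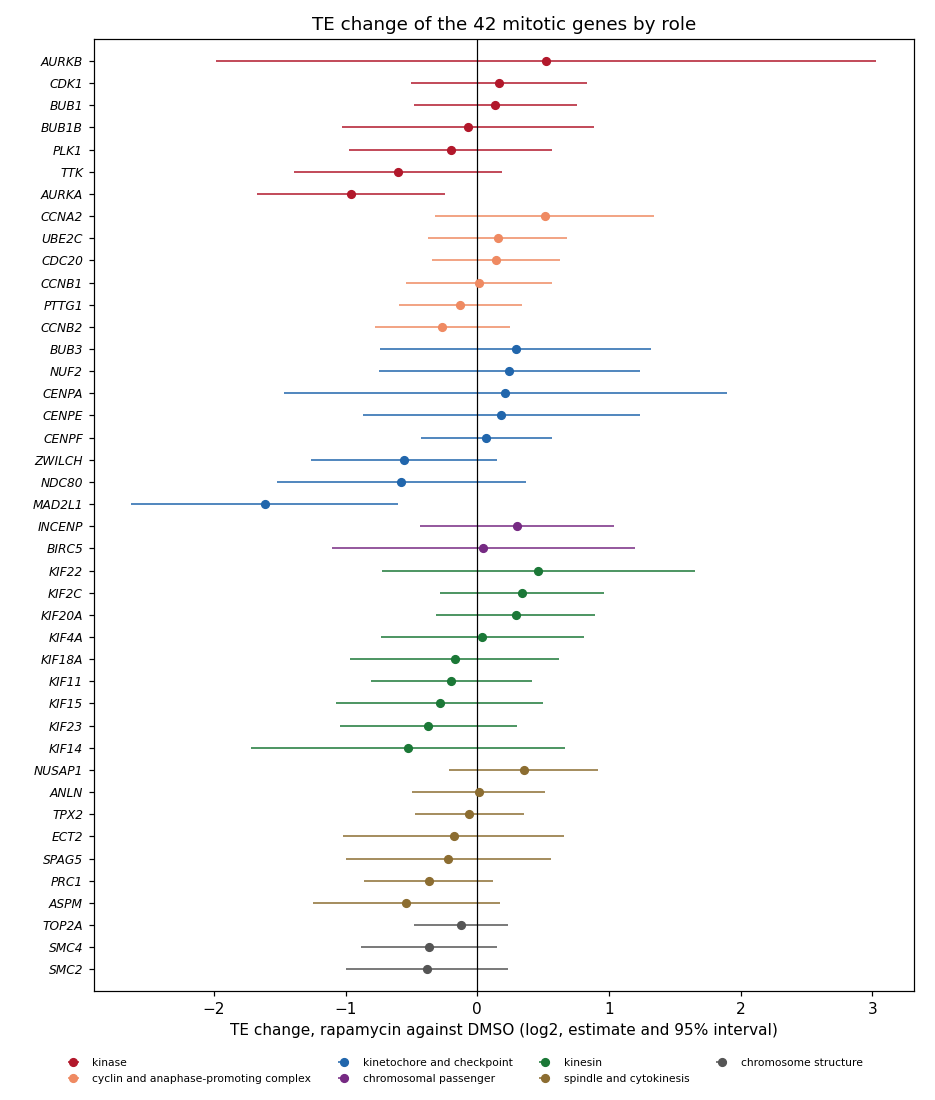
TE change of each of the 42 genes, rapamycin against DMSO, on the log2 scale, as the edgeR estimate (point) with its 95% interval (line), ordered within each role by value and coloured by role. The intervals of MAD2L1 and AURKA lie below 0, and the other 40 include 0.

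The footprints of 4 genes were lower in every rapamycin culture than in every DMSO culture, both as RF and as TE. They were MAD2L1, AURKA, ZWILCH and CCNB2, 4 of 42 against 6.18% of all genes for TE, and 0 of the 42 were separated in the other direction (4.78%). With 3 cultures against 3, a two-sided exact permutation test of log2 TE gives 0.1 for each of the 4, the smallest p that the design allows. Complete separation fixes this value, so the test adds nothing to it. Values of each culture below are counts per total of the library after TMM scaling (CPM).

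MAD2L1 (ENSG00000164109, GRCh37 chr4:120976778-120988013, minus strand) codes for MAD2, the checkpoint protein that, bound to CDC20, holds back the anaphase-promoting complex. Its RF level was 58.2, 112 and 36.6 CPM in DMSO replicates 1, 2 and 3, and 21.5, 21.7 and 23.2 CPM in the rapamycin replicates, from 19, 89 and 54 reads against 26, 18 and 7. The rapamycin cultures were nearly alike, and the DMSO cultures differed among themselves by more than the lowest of them differed from rapamycin. Its total RNA was 77.6, 76.4 and 82.5 CPM in DMSO and 80.3, 73.0 and 79.4 CPM in rapamycin, so that the groups overlapped. The TE change was −1.62 on the log2 scale (SE 0.47, adjusted p = 0.232 in edgeR's quasi-likelihood test). Without DMSO replicate 2, the highest of the 6, it was −0.89 (adjusted p = 0.239), and against DMSO replicate 3 alone, a single culture and so given without a test, it was −0.66. Without DMSO replicate 3 it was −2.07, and the adjusted p was 0.0218 in edgeR's test.

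AURKA (ENSG00000087586, GRCh37 chr20:54944445-54967393, minus strand) codes for the Aurora A kinase of the centrosome and spindle poles. Its RF level was 67.4, 152 and 98.9 CPM in DMSO and 42.2, 57.8 and 66.2 CPM in rapamycin, from 22, 121 and 146 reads against 51, 48 and 20. The gap between the lowest DMSO and the highest rapamycin culture, 67.4 against 66.2 CPM, was small, and both values come from the smallest RF library of their treatment. Total RNA was 182, 189 and 187 CPM in DMSO and 178, 170.2 and 180.0 CPM in rapamycin, also without overlap. The TE change was −0.96 (SE 0.33, adjusted p = 0.278 in edgeR's test), and over the fits that left out a replicate it ran from −1.12 to −0.68. TPX2, the spindle protein that activates Aurora A, had RF levels of 370, 464 and 438 CPM in DMSO and 487, 354 and 347 CPM in rapamycin, and a TE change of −0.06 (SE 0.19).

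ZWILCH (ENSG00000174442, GRCh37 chr15:66797297-66842468, plus strand) is a subunit of the RZZ complex, which recruits the checkpoint proteins to the kinetochore. Its RF level was 61.2, 65.2 and 71.1 CPM in DMSO and 55.4, 30.1 and 33.1 CPM in rapamycin. Rapamycin replicate 1 thus lay near the DMSO cultures and the others far below them. The TE change was −0.56 (SE 0.33, adjusted p = 0.503 in edgeR's test). In the annotation, 158 of the 4851 exon bases of ZWILCH are shared with RPL4, a ribosomal protein gene on the opposite strand, and the strand setting of the counting is not given in the sources used here. The RF level of RPL4 was 775, 810 and 962 CPM in DMSO and 901, 714 and 625 CPM in rapamycin, and the part of its reads in the ZWILCH counts was not tested.

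CCNB2 (ENSG00000157456, GRCh37 chr15:59397325-59417244, plus strand) codes for cyclin B2, an activating partner of CDK1. Its RF level was 104, 114 and 98.2 CPM in DMSO and 92.6, 74.6 and 82.7 CPM in rapamycin, a small but complete separation. The TE change was −0.27 (SE 0.24, adjusted p = 0.689 in edgeR's test). CCNB1, the other B-type cyclin of the group, had RF levels of 276, 354 and 363 CPM in DMSO and 434, 290 and 228 CPM in rapamycin. Its rapamycin cultures lay on both sides of the DMSO cultures, and its TE change was 0.01 (SE 0.26). Pseudogenes named after MAD2L1, AURKA, CCNB2 and 6 others of the 42 are annotated, and reads that align to a gene and its copy would have been lost to the unique alignment, so the counts of these 9 genes are uncertain. Exons of 12 of the 42, ZWILCH among them, overlap those of another coding gene in the annotation. For BUB1B, CENPA, NUSAP1, PRC1 and SPAG5 an overlapping gene lies on the same strand. The effect of these overlaps on the counts was not tested.

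**Figure D2:**
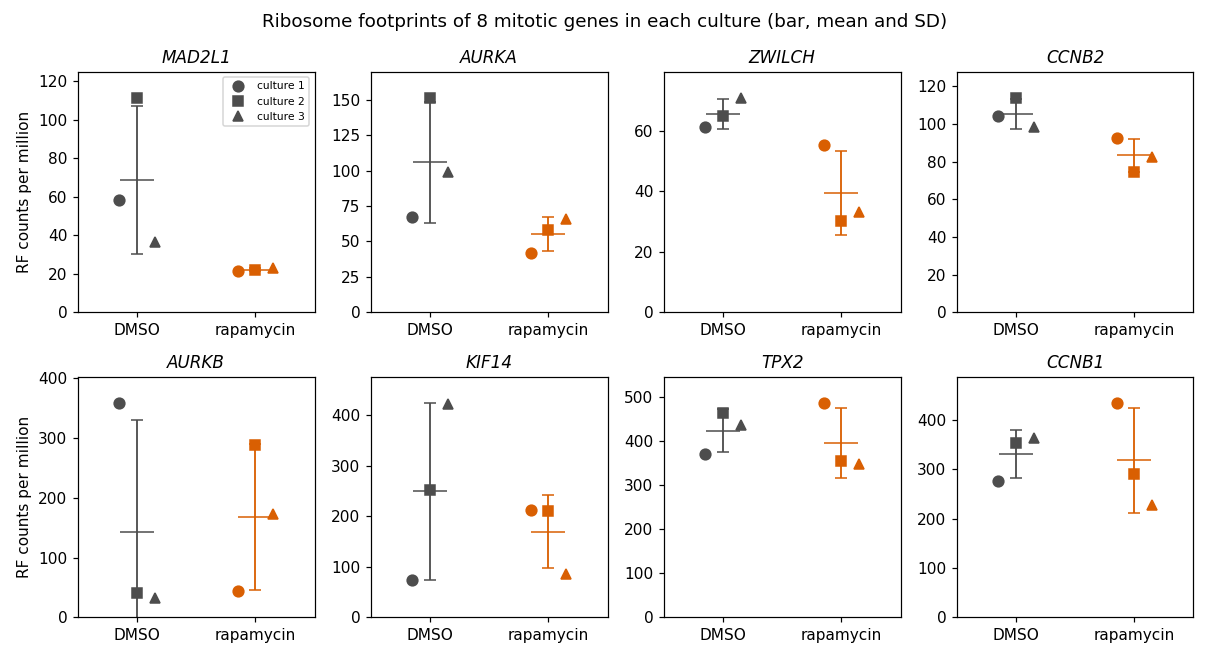
RF level in CPM (vertical axis, from 0) of 8 of the genes in each DMSO (grey) and rapamycin (orange) culture, with the mean and SD of 3 cultures as a bar. In the upper row (MAD2L1, AURKA, ZWILCH and CCNB2) the treatments do not overlap, and in the lower row (AURKB, KIF14, TPX2 and CCNB1) they do.

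Among the other kinases, CDK1, the kinase that drives entry into mitosis, had RF levels of 196, 172 and 205 CPM in DMSO and 303, 152 and 149 CPM in rapamycin, with a TE change of 0.16 (SE 0.31). The rapamycin cultures again enclosed the DMSO cultures. BUB1B, the checkpoint kinase relative BUBR1, had the fewest footprints of the kinases, at 9.18, 50.1 and 57.6 CPM in DMSO and 43.0, 32.5 and 52.9 CPM in rapamycin. The 7 kinases had a median TE change of −0.07. PLK1, which acts on centrosomes and kinetochores, was at −0.20 (SE 0.36), TTK, the checkpoint kinase MPS1, at −0.60 (SE 0.37) and BUB1 at 0.14 (SE 0.29).

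AURKB, the kinase of the chromosomal passenger complex, had the widest interval of the TE change among the 42. Its RF level was 358, 40.1 and 31.8 CPM in DMSO and 43.8, 288 and 172 CPM in rapamycin, so that 1 DMSO and 2 rapamycin cultures were high and the rest low. Its total RNA did not share this pattern, with a change of −0.10 (SE 0.04), and its TE change of 0.53 had an SE of 1.14. CENPA, the histone H3 variant of the centromere, had RF levels of 58.2, 0 and 15.6 CPM in DMSO and 7.44, 36.1 and 13.2 CPM in rapamycin. Its highest culture in each treatment was also the highest for AURKB. The count of 0 in DMSO replicate 2 allows up to 3.76 CPM, a limit that covers counting error only. The other passenger proteins were INCENP, the scaffold, at 36.7, 70.2 and 42 CPM in DMSO and 56.2, 56.6 and 76.1 CPM in rapamycin, and BIRC5 (survivin), at 36.7, 6.27 and 27.1 CPM against 18.2, 25.3 and 23.2 CPM.

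Of the 6 cyclins and genes of the anaphase-promoting complex pathway, 4 had a TE change above 0 and the median was 0.08. CCNA2, the cyclin of S phase and early mitosis, stood at 33.7, 40.1 and 56.9 CPM of footprints in DMSO and 93.4, 44.5 and 46.3 CPM in rapamycin, so that a single rapamycin culture carried its TE change of 0.51 (SE 0.39). The complex's activator CDC20 was at 0.14 (SE 0.23), its ubiquitin-conjugating enzyme UBE2C at 0.15 (SE 0.25), and its substrate PTTG1 (securin) at −0.13 (SE 0.22). These 3 were among the more precise estimates.

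The 8 kinetochore and checkpoint genes spread the most, from −1.62 for MAD2L1 to 0.29 for BUB3, with a median TE change of 0.13. NDC80 and NUF2, which form a dimer that grips the microtubule end, were at −0.58 (SE 0.44) and 0.24 (SE 0.46). CENPF, a large protein of the outer kinetochore, had the most footprints of this role, with 199, 241 and 202 CPM in DMSO and 227, 164 and 245 CPM in rapamycin, and a TE change of 0.07 (SE 0.23). BUB3, the partner of BUB1 and BUBR1, had 47.6 CPM of footprints in DMSO replicate 2 and between 171 and 241 CPM in the other 5 cultures.

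Of the 9 kinesins, 5 had a TE change below 0, and the median was −0.17. KIF14, a kinesin of cytokinesis, had the most footprints, at 73.5, 252 and 423 CPM in DMSO and 212, 211 and 86.0 CPM in rapamycin. Its lowest culture in each treatment was the smallest RF library of that treatment, and its TE change was −0.53 (SE 0.56). KIF18A, which limits the length of kinetochore microtubules, had the fewest, with 18.4, 23.8 and 27.1 CPM in DMSO and 23.2, 21.7 and 16.5 CPM in rapamycin. KIF11, the spindle bipolarity motor Eg5, was at −0.20 (SE 0.29), KIF23, the central spindle motor MKLP1, at −0.37 (SE 0.31), and KIF20A, which carries the passenger complex to the central spindle, at 0.29 (SE 0.28). KIF22 was highest at 0.46 (SE 0.56).

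The 7 genes of spindle and cytokinesis had a median TE change of −0.18, with 5 below 0. ASPM, a spindle pole protein, had the fewest footprints, at 64.3, 87.8 and 47.4 CPM in DMSO and 49.6, 45.7 and 29.8 CPM in rapamycin, and a TE change of −0.54 (SE 0.33). PRC1, which bundles the microtubules of the central spindle, was at −0.37 (SE 0.23), and ANLN, the anillin of the contractile ring, at 0.01 (SE 0.24). All 3 genes of chromosome structure were below 0. TOP2A, the topoisomerase that untangles sister DNA, had RF levels of 361, 345 and 427 CPM in DMSO and 379, 307 and 314 CPM in rapamycin and a TE change of −0.12 (SE 0.17). The condensin subunits SMC2 and SMC4 were at −0.38 (SE 0.29) and −0.36 (SE 0.24), and SMC2 had 70.4, 69.0 and 94.8 CPM in DMSO against 49.6, 56.6 and 72.8 CPM in rapamycin.

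For footprints taken alone, 28 of the 42 genes had a log2 RF change below 0, against 48.8% of all genes, with a median of −0.14 against 0.02 for all genes. Of the 5377 other genes whose mean total RNA count lay within the range of the 42, 51.8% were below 0, with a median of −0.02. Over the alternative settings, the number of the 42 below 0 ran from 23 to 31. The share of RF counts that went to the 42 genes was 0.559%, 0.494% and 0.534% in DMSO and 0.513%, 0.507% and 0.501% in rapamycin, so that the treatments overlapped in this sum. By edgeR's test with adjustment, 0 of the 42 passed the same threshold, beside 1 gene of all (0.0075%, higher in rapamycin), and DESeq2's Wald test called 5 genes of all and 0 of the 42. At an unadjusted p under 0.05, 2 of the 42 were lower (1.94% of all genes), again MAD2L1 at −1.64 (SE 0.52) and AURKA at −0.97 (SE 0.39), and 0 were higher (1.76%). The cultures of 4 genes did not overlap and were lower in rapamycin (4.22% of all genes), and 0 were higher (5.24%). Relative to the mean of the DMSO cultures, the median of the 42 was 0.01, −0.25 and −0.21 in rapamycin replicates 1, 2 and 3. Rapamycin replicate 1 thus showed no drop. Leaving out 1 culture at a time moved the median RF change between −0.29, without rapamycin replicate 1, and −0.08.

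In total RNA the 42 genes lay slightly lower in rapamycin almost without exception, by a few percent. The log2 change was below 0 for 41 of them, PTTG1 at 0.00 being the other, against 47.5% of all genes, and the median was −0.04, against 0.00 for all genes. Because the mitotic genes are among the more abundant, the same was counted in the 5377 other genes whose mean total RNA count fell within their range, of which 63.1% were below 0 with a median of −0.02. By edgeR's test with adjustment, 0 of the 42 passed the threshold (0.0% of all genes), with a smallest adjusted p of 0.762. DESeq2's Wald test called 1 of the 42, KIF23, and also genes outside the 42, as counted in the closing section. At an unadjusted p under 0.05, 7 were lower (2.63% of all genes, and 3.92% of those in the same range) and 0 were higher (3.24%). In bulk samples, fewer cells in mitosis and less RNA per cell cannot be told apart.

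In 12 genes the total RNA of every rapamycin culture was below that of every DMSO culture, and in 0 it was above, against 6.76% and 8.08% of all genes and 10.4% and 2.19% of those in the same count range. The 12 were the kinases AURKA and PLK1, the cyclins CCNB1 and CCNB2, ZWILCH, the kinesins KIF2C, KIF20A and KIF23, the spindle proteins PRC1, SPAG5 and TPX2, and TOP2A. KIF23 had the smallest p, with 346, 341 and 336 CPM in DMSO and 321, 307 and 314 CPM in rapamycin, a change of −0.12 (SE 0.03, adjusted p = 0.762 in edgeR's test). ZWILCH had the lowest change of the 12, with 91.0, 91.4 and 90.8 CPM in DMSO and 86.1, 79.1 and 84.5 CPM in rapamycin, or −0.13 (SE 0.04). CCNB1, with 341, 363 and 344 CPM in DMSO and 334, 333 and 337 CPM in rapamycin, and PLK1, with 82.8, 80.8 and 78.2 CPM against 75.8, 77.0 and 76.1 CPM, were at −0.06 (SE 0.03) and −0.08 (SE 0.03). The separation of TPX2 was the narrowest, from 783.4 CPM in the lowest DMSO culture to 783.3 CPM in the highest rapamycin culture.

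The deviation was not equal in the 3 rapamycin cultures. The median of the 42 genes, relative to the mean of the DMSO cultures, was −0.03, −0.08 and −0.05 in rapamycin replicates 1, 2 and 3, and within 0.01 of 0 in each DMSO culture, while the median of all genes tested was 0.00, 0.01 and 0.00 in rapamycin. Rapamycin replicate 2, with the largest shift, was also the smallest total RNA library. Its counts differed from replicates 1 and 3 by a chi-square per degree of freedom of 30.1 and 30.4, against 4.76 between replicates 1 and 3. The number of the 42 below 0 was between 36 and 42 over the alternative settings, and 37 with FPKM values. Without DMSO replicates 1 and 2, the libraries with counts on fewer genes, 41 were below 0, a count that rests on a single DMSO culture. The number at an unadjusted p under 0.05 was 3 with FPKM values.

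**Figure D3:**
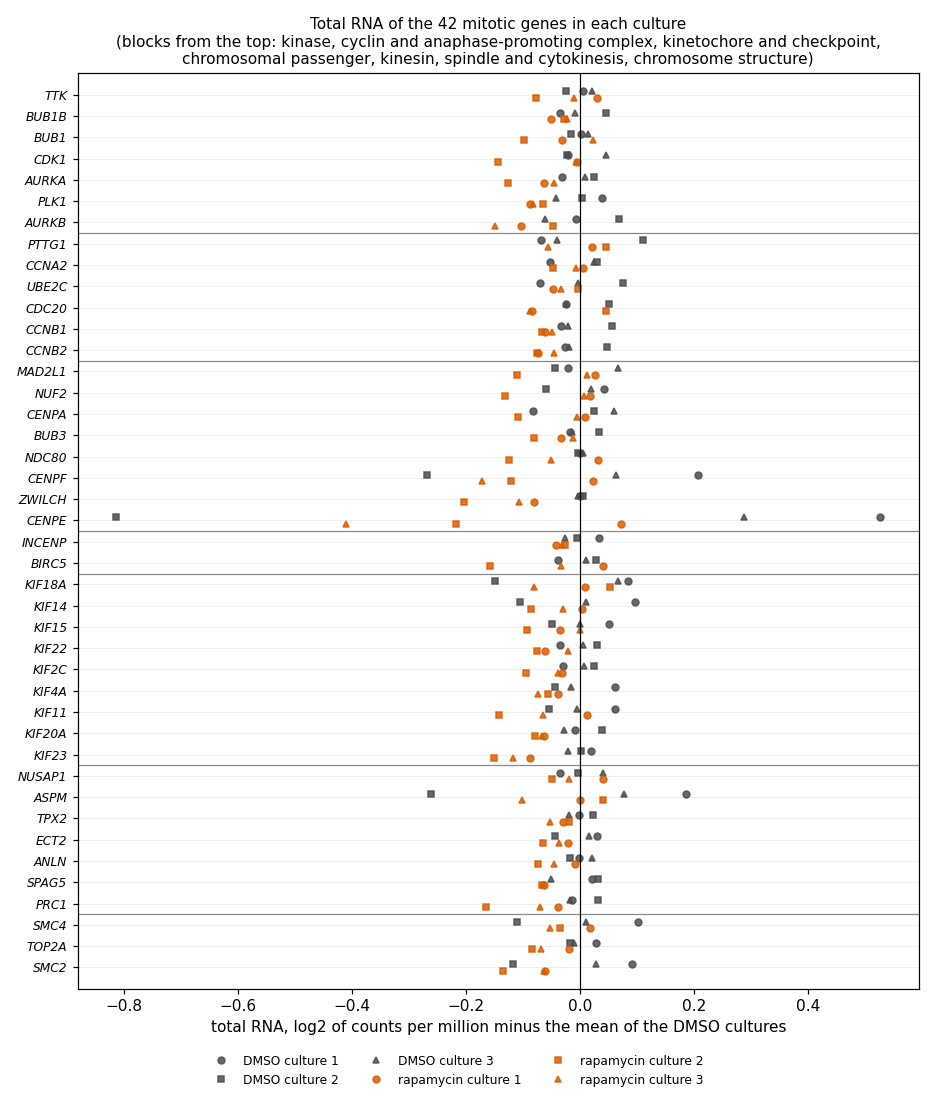
Total RNA of each of the 42 genes in each culture, as log2 CPM minus the mean of the 3 DMSO cultures (horizontal axis), with DMSO in grey and rapamycin in orange and the cultures as symbols, in blocks by role. Most rapamycin points lie between −0.2 and 0.05, and the DMSO cultures of CENPE, CENPF and ASPM spread far more than those of the other genes.

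Total RNA of 3 genes varied within DMSO by far more than that of the rest. CENPE, the kinetochore kinesin, differed 2.53-fold between its highest and lowest DMSO culture, CENPF 1.39-fold and ASPM 1.36-fold, against a median of 1.06-fold for the 42 genes. CENPF was at 908, 653 and 823 CPM in DMSO and 799.5, 724 and 699 CPM in rapamycin, and ASPM at 254, 186 and 236 CPM against 223, 229.7 and 208 CPM. In each of the 3, DMSO replicate 2 was the lowest of the 6 cultures. The isoforms of these genes were 8742 nt, 10290.0 nt and 10863 nt long, the longest of the 42. Over all 42 genes the Spearman correlation of the ratio of highest to lowest with length was 0.07 (across genes, which are not independent replicates). In 572 tested genes with isoforms of at least 8000 nt and at least 1000 mean DMSO total RNA counts, the median ratio was 1.06. A part of length in the spread was not tested. The RF level of CENPE was 52.0, 36.4 and 70.4 CPM in DMSO and 54.6, 40.9 and 59.6 CPM in rapamycin, where DMSO replicate 2 was again the lowest.

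Levels of different genes were compared per length with the FPKM values of total RNA. In DMSO the 42 genes had a median of 52.4 FPKM, against 11.1 FPKM for all genes tested. CCNB1 was highest, at 220.1 ± 7.31 FPKM (SD, n = 3), followed by ANLN at 197 ± 8.14, TPX2 at 184 ± 2.99 and PTTG1 at 182 ± 13.98. By 1 SD, PTTG1 overlapped with both ANLN and TPX2, which did not overlap with each other, and CCNB1 overlapped with none of them. KIF15, a spindle kinesin, was lowest at 10.2 ± 0.910 FPKM, after CENPE at 13.8 ± 4.68 and KIF14 at 14.95 ± 0.999.

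Footprints relative to total RNA also differed among the genes in DMSO. The log2 ratio of RF to total RNA, both in CPM, had a median of −0.89 over the 42 genes and −0.52 over all genes tested, and 27 of the 42 lay below the latter. It was −1.14 in the other genes of the same range of total RNA counts, and only 15 of the 42 lay below that. The cyclin and anaphase-promoting complex genes were highest by role, with PTTG1 at 0.40 ± 0.20 (SD, n = 3), UBE2C at 0.13 ± 0.34, CCNB2 at −0.01 ± 0.07 and CCNB1 at −0.08 ± 0.20, while CCNA2 was lower at −1.05 ± 0.33. The spindle genes SPAG5 at −1.96 ± 0.71, ASPM at −1.74 ± 0.62 and NUSAP1 at −1.45 ± 0.35, and the kinase BUB1 at −1.84 ± 0.55, were among the lowest. BUB1B had the lowest mean, −2.20, and AURKB the highest, 0.71, but with SDs of 1.29 and 1.88 their places in this order were not fixed. Across the 42 genes, the ratio had a Spearman correlation of −0.44 with the length of the isoform, −0.11 with the coding share of it and −0.07 with FPKM, as a description of genes that share their libraries.

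**Figure D4:**
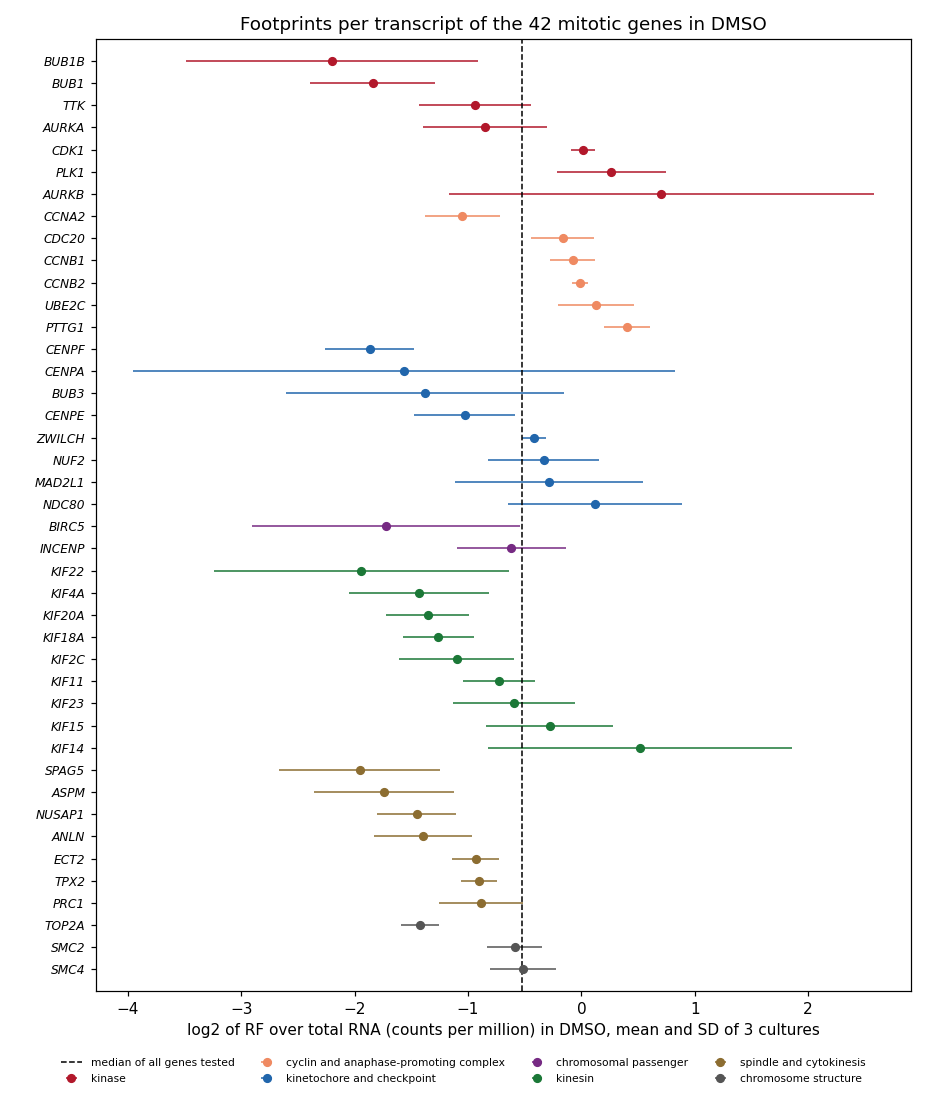
Log2 ratio of RF to total RNA in DMSO (both in CPM) for each of the 42 genes, as the mean (point) and SD (line) of 3 cultures, grouped by role. The dashed line marks the median of all genes tested, −0.52, and 27 of the 42 genes lie below it.

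Other genes of the same processes were taken from lists by function, drawn up with earlier results of these data known. Of 90 further mitotic genes, 0 passed the adjusted threshold for TE in edgeR's test, 5 were lower without adjustment and 5 were higher, against 6.43% and 6.16% of all genes, and the median TE change was −0.09. By function their medians ran from −0.24 for 28 kinetochore genes to 0.12 for 15 genes of the anaphase-promoting complex. Of the 28, 21 were below 0, against 53.7% of all genes, with 4 lower and 0 higher without adjustment, and of the 15, 6 were below 0, with 0 lower and 1 higher. In total RNA, 69 of the 90 were below 0, against 47.5% of all genes, with a median of −0.04. Of 45 DNA replication genes, 2 had a lower and 3 a higher TE at an unadjusted p under 0.05, near the shares of all genes, the median was −0.15, and 36 were below 0 in total RNA. Of 21 genes of G1 cyclins, their kinases and the RB family, 2 were lower and 2 higher, the median was −0.12, and 15 were below 0 in total RNA. The smallest TE p of the mitotic, replication and G1 lists belonged to PMF1, MCM4 and CDKN1B (the inhibitor p27). Their changes were −1.23 (SE 0.29), −0.76 (SE 0.25) and −0.83 (SE 0.32), with adjusted p of 0.222, 0.244 and 0.312 in edgeR's test. ANAPC15, next by p in the mitotic list, went the other way, at 2.58 (SE 0.67, adjusted p = 0.232 in edgeR's test).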

How the data were processed

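Total RNA and ribosome-protected fragments of 6 PANC-1 cultures were sequenced. The authors filtered and trimmed the RF reads, removed ribosomal RNA, aligned to GRCh37 with HISAT2 and deposited raw counts per protein-coding gene, made by featureCounts from exonic reads with a unique alignment. The authors deposited FPKM values of total RNA made with Cufflinks 2.2.1 (cuffnorm). Their own TE ratios, fold changes and p-values, and the cuffnorm counts, were not used. Other versions and the strand setting are not given in the sources used here.

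Samples were grouped by their labels. The 42 genes and the other lists were chosen with earlier results of these data known. Genes with at least 10 summed counts in each library type were tested in R 4.3.3 with edgeR 4.0.16 (quasi-likelihood, robust, TMM within library type), TE as the interaction of library type and treatment, and p-values were adjusted by Benjamini-Hochberg over all genes tested. Values per culture are CPM on the TMM scale, and log2 ratios had a prior count of 2. Floors of 3 counts were 2.03 to 9.93 CPM in RF, on the same scale. Intervals are 95% intervals of the fit. Alternatives used DESeq2 1.42.0 and limma 3.58.1 (voom, and limma-trend on FPKM). Leaving out DMSO replicates 1 and 2 together, and the smallest RF library of each treatment, was chosen after seeing the data. The fits were tested on simulated data. Genes were given per-culture values where their unadjusted TE or RF p was under 0.05, their cultures did not overlap, or they had the most or fewest footprints of their role, and others were named after their values were seen. Figures and tables were made in Python with pandas 2.3.3. Positions come from an annotation of GRCh37 whose version may differ from the authors'. Replicate numbers were not treated as pairs in the main fits.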

Additional observations from a re-analysis of the deposited data

How the results depend on the processing

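For TE, DESeq2's Wald test called 2 of the 42 genes, a smaller share than the 1299 of all 13329 genes, against 0 in edgeR's test. Without adjustment, DESeq2 gave 6 lower and 2 higher of the 42, while limma voom gave 1 lower and 0 called. Counts without adjustment in this section are given without the share of all genes, so they do not set the 42 apart from the rest. For total RNA, DESeq2's Wald test called 1 of the 42 and 29 genes in all. Leaving out each replicate in turn gave 0 to 1 called genes of the 42 for TE, 2 to 4 genes lower and 0 to 1 genes higher without adjustment, and a median TE change of −0.206 to −0.00678. The 1 called gene was MAD2L1 without DMSO replicate 3, when edgeR called 444 genes in all for TE and 883 for total RNA. For RF, the same fits gave 0 to 3 lower, 0 to 1 higher and a median of −0.285 to −0.0825, and for total RNA 3 to 6 lower and a median of −0.0662 to −0.0396. The median log2 ratio of RF to total RNA in DMSO ran from −0.87 to −0.74. Leaving out DMSO replicates 1 and 2 leaves a single DMSO culture, assumed to vary like the rapamycin cultures. Its p-values say nothing about stability, and counts of genes under a p threshold are not given for it. Without the 2 smallest RF libraries and their RNA, 1 gene was higher for RF and 3 genes were lower for total RNA. For total RNA, 2 genes were lower with a minimum of 60 counts and 3 in each of the 3 limma-trend settings on FPKM.

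Deviations of same-numbered cultures had correlations of −0.12, −0.06 and −0.07 in RF and −0.11, −0.12 and −0.22 in total RNA. With 3 cultures per treatment, a weak shared factor could go unseen, and the labels do not say whether the numbers pair the cultures. With the number as a replicate block, 0 of the 42 genes were called for TE, RF or total RNA, 3 instead of 7 were lower in total RNA at an unadjusted p under 0.05, and the genes called in RF rose from 1 to 6 of all genes. The RF count of all genes was 20 with no filter beyond 1 count. No direction of a called value reversed. Over the settings tried, counts and medians of the 42 genes moved in 31 cases and did not in 200, and among values of single genes and of all genes 22 moved, 3 newly passed the threshold and 875 did neither. Few reads stand behind each RF value, and the TE test missed most changed genes on simulated counts. The causes of these differences were not tested.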
